A study of Mus musculus with 24 samples.

Results

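Hepcidin and the genes of iron handling were followed across 4 groups of mouse liver arrays, as 10 named genes: Hamp, Hamp2, Tfrc, Tfr2, Slc40a1, Slc11a2, Fth1, Ftl1, Hfe and Bmp6. Their probe sets were those whose gene symbol in the array's annotation was one of these names, and 26 of the 45101 probe sets qualified. Of the 10 genes, 9 had a probe set of their own and all 9 passed the filter on low values, among 14090 tested genes and 18193 genes with a probe set of their own. Ftl1 was not tested, because its 3 probe sets were also assigned to the pseudogene Ftl1-ps2. The study measured total RNA of whole liver tissue from B6C3F1 mice on 24 one-colour arrays, 6 in each group, to compare hepatoblastoma with neighbouring hepatocellular carcinoma, neighbouring non-tumour liver and normal liver. The groups are called HB (hepatoblastoma, an embryonal type of liver tumour), HCC (hepatocellular carcinoma), BDCA_nontumor (liver outside the tumours, titled BDCA_Normal) and vehicle_normal (normal liver of vehicle controls). The protocols describe a 2-year gavage study of Ginkgo biloba extract in corn oil in male and female mice. Its doses were 200, 600 and 2000 mg/kg on 5 days per week. The titles, however, carry the letters BDCA, which the labels do not spell out. No sample has a dose, a sex or an animal in the labels. The labels do not say whether replicates are different animals, and the p-values therefore speak for the variation among these arrays alone, part of which may be technical.

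Hepcidin is a peptide hormone made mainly by hepatocytes that binds the iron exporter ferroportin (Slc40a1) and has it degraded, which holds iron inside cells. Its gene is switched on when iron is plentiful, through the ligand BMP6 from the endothelium of the sinusoids, BMP receptors and SMAD proteins, with HFE, transferrin receptor 2 and hemojuvelin acting as sensors on the hepatocyte, and it also responds to interleukin-6 through STAT3. Transferrin receptor 1 (Tfrc) takes up transferrin-bound iron, DMT1 (Slc11a2) carries it out of the endosome, and ferritin, built of heavy and light chains, stores it.

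Mice have a pair of hepcidin genes, and their promoters are shown because the results turn on Hamp and Hamp2, whose differences from vehicle_normal in HCC were the lowest of the 9 tested genes, and because the pair differ in a known type of regulatory site. The sequences are from RefSeq on GRCm38.p6, on the minus strand of chromosome 7, written 5′ to 3′. Capitals mark the 6 bases GGCGCC, the core of a BMP-responsive element, or the bases aligned with it, and the 9-base match to the STAT motif TTCNNNGAA.
Hamp, chr7:30944080-30944179: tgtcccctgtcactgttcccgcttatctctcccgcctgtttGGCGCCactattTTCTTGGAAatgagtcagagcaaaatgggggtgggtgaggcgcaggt
Hamp2, chr7:30924229-30924328: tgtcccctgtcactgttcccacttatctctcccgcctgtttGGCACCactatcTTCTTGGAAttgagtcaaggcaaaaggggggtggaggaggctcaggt
The stretches run from -150 to -51 (Hamp) and from -147 to -48 (Hamp2) relative to the annotated start sites. They shared 90 of 100 aligned bases, and 227 of 247 aligned bases upstream of the starts were identical (91.9%). Within the 6 bases, Hamp2 differed from Hamp by G4A, counted from the 5′ end of the site with the base of Hamp first. GGCGCC was found in 11.9% and TTCNNNGAA in 8.3% of 32851 promoter windows of 300 bases, searched on both strands. Among the 8 of 10 genes with a promoter in the table, GGCGCC was found in Hamp (first base at -109) and Tfrc (-89), and TTCNNNGAA in Hamp (-97) and Hamp2 (-94). A match is a description of letters and not of a bound site. No promoter is shown for Slc40a1 and Slc11a2.

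The arrays carried deposited intensities on a linear scale. The lowest and highest array medians were 144 and 202 in HB against 75.5 and 111 in vehicle_normal. HCC replicates 3 and 4 were nearly the same array (r = 0.981 against at most 0.957 in the other within-group pairs) and were averaged, so HCC had n = 5 and the other groups n = 6. Xist intensity was above 1000 on 4 of 6 vehicle_normal arrays, 1 of 6 BDCA_nontumor arrays and no tumour array. Differences are between means of log2(intensity + 16), given ± SE, and were tested in limma with Benjamini-Hochberg adjustment over all tested genes at a threshold of 0.05. In HB against vehicle_normal, 8 of 8 hepatocyte markers, 8 of 8 macrophage markers and 7 of 8 sinusoidal endothelium markers fell, where 23.1% of all tested genes did. There 7 of 7 tested proliferation markers rose, beside 37.2% of all tested genes. The mean log2 level of the hepatocyte list was 5.86 to 11.23 in HB, 12.84 to 14.41 in HCC, 14.07 to 14.63 in BDCA_nontumor and 14.22 to 14.82 in vehicle_normal. The macrophage list spanned 5.77 to 6.75 in HB and 8.83 to 10.97 in vehicle_normal, and the endothelium list 6.67 to 7.78 and 10.04 to 10.37. These are whole-tissue samples, so fewer cells of a type and less RNA per cell cannot be told apart, and the part of cell makeup in the results below was not tested.

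Against vehicle_normal, 7 of the 9 tested iron genes fell in HB and 1, Tfrc, rose, where 60.2% of all tested genes passed the threshold (37.2% higher, 23.1% lower). The median difference of the 9 genes was -3.82 on the log2 scale, beside 0.34 over all tested genes. HB and vehicle_normal did not overlap for 6 of the 9, beside 37.6% of all tested genes. In HCC, Hamp2 fell and Tfrc rose, 2 of the 9, where 7.23% of all tested genes passed (4.36% higher, 2.87% lower), and 2 of the 9 (Hamp2 and Slc40a1) did not overlap, beside 5.07%. In BDCA_nontumor no iron gene passed at its brightest probe set, where 0.0994% of tested genes did, and the 9 differences ran from -0.98 (Hamp2) to 0.80 (Tfrc). The 3 comparisons share the vehicle_normal arrays.

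**Figure D1:**
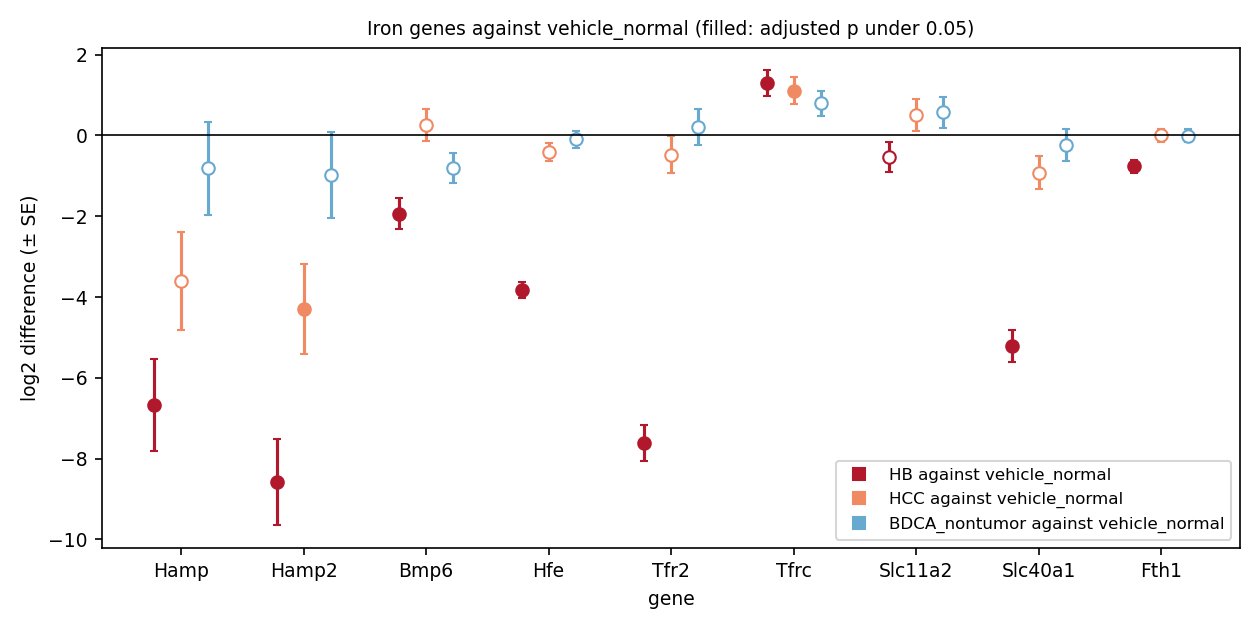
Log2 difference from vehicle_normal (y axis, ± SE) of the 9 tested iron genes (x axis) in HB, HCC and BDCA_nontumor, with filled points at an adjusted p under 0.05. In HB the points of Hamp, Hamp2, Tfr2, Slc40a1 and Hfe lie between -8.58 and -3.82, whereas the BDCA_nontumor points lie between -0.98 and 0.80.

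Hamp, the gene of the active hormone, was read at 60757, 53172, 43635, 48379, 38617 and 46036 on the vehicle_normal arrays. In HB it was read at 352, 156, 155, 3648, 2216 and 107. The groups did not overlap, and the mean of Hamp fell by 6.67 ± 1.15 on the log2 scale, a 102-fold lower level (adjusted p = 2.06e-05). HB replicates 4 and 5, at 3648 and 2216, were the highest of the group, and they also had the highest hepatocyte list means of HB, 11.23 and 9.88, against 5.86 to 7.39 on the other 4 arrays. Albumin (Alb), the main hepatocyte plasma protein, was read at 28758 and 15782 on those 2 arrays and at 229 to 1630 on the others.

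In HCC the 6 Hamp intensities were 50582, 351, 29394, 37973, 61.5 and 20059. Replicates 2 and 5 thus lay in or below the range of HB, and the other 4 arrays lay between 20059 and 50582, partly inside the range of vehicle_normal. The difference from vehicle_normal was -3.60 ± 1.20 and did not pass (adjusted p = 0.0676). It passed without HCC replicate 1 (-4.52, adjusted p = 0.0174), without HCC replicates 3 and 4 (-4.37, 0.0349) and without HB replicates 4 and 5 (0.0442), the last through the shared estimate of the spread. A second Hamp probe set, of a design that can share probes with other transcripts, gave 364 and 250 on replicates 2 and 5 and 11751 to 33745 on the others.

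On the HCC arrays without much Hamp, other transcripts of the hepcidin circuit were present. On replicates 2 and 5, Tfr2 was read at 4494 and 10050, Hfe at 2047 and 1676, and the hemojuvelin gene Hjv at 11795 and 6683, where vehicle_normal spanned 7824 to 11792 for Hjv. Alb was read at 22998 and 38655 there. The hepatocyte factor gene Creb3l3 was at 2136 and 7234, beside 6241 to 7255 in vehicle_normal. Id1, a gene switched on by the same SMAD proteins as hepcidin, was at 208 and 158, beside 150 to 431 in vehicle_normal. The list of 8 such target genes, described below, was lower on these arrays, with mean log2 levels of 8.28 and 7.87. Its means were 8.68 to 9.41 on the other HCC samples, 8.51 to 9.41 in vehicle_normal and 8.30 to 9.10 in BDCA_nontumor. The BDCA_nontumor array at 8.30, replicate 6, was close to HCC replicate 2 on this list but read 7265 for Hamp. Replicate 2 had the lowest hepatocyte list mean of HCC (12.84), and replicate 5 had the lowest macrophage and endothelium means (7.00 and 8.57), beside 9.26 to 10.35 and 10.36 to 10.69 on the other HCC samples. The part of these in the Hamp values was not tested.

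BDCA_nontumor had Hamp intensities of 7265 to 46852 with a median of 31270. Replicate 6 was the lowest, at 7265, and the other 5 arrays lay between 27210 and 46852. The difference from vehicle_normal was -0.82 ± 1.15 (adjusted p = 0.859). This SE rests on a spread shared by all 4 groups. The standard deviation of log2 values was 0.99 in BDCA_nontumor and 0.23 in vehicle_normal, beside 4.26 in HCC and 2.09 in HB. Ordered by mean, Hamp ran from vehicle_normal through BDCA_nontumor and HCC to HB, and among neighbours only HCC and HB differed (-3.07 ± 1.20, adjusted p = 0.0359). That last call was lost without any of HB replicates 1, 2, 3 and 6 or HCC replicates 1 and 6 (-3.00 to -2.15, adjusted p = 0.0560 to 0.136), the value nearest 0 being that without HCC replicate 1. It was also lost without HCC replicates 3 and 4 (-2.30, adjusted p = 0.128), without the arrays with Xist signal (-3.07, 0.0614) and with HB and HCC fitted alone (0.123).

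Hamp2, the second hepcidin gene, whose peptide is not known to act on iron in the way hepcidin does, followed the same order of groups. Its HB intensities were 65.6, 24.3, 7.08, 547, 291 and 6.92, and 4 of them lay under the filter value of 66.2. Vehicle_normal was read at 19288 to 46665 with a median of 31544, and the difference was -8.58 ± 1.07 (adjusted p = 1.82e-07). With the dim HB values set to the filter value, Hamp2 in HB was at least 222-fold lower. HCC gave 12203, 12.7, 12144, 14380, 498 and 4243, so its replicates 2 and 5 were again the lowest, and even its highest array lay under the lowest of vehicle_normal. The HCC difference of -4.30 ± 1.12 (adjusted p = 0.0197) missed the threshold without HCC replicate 2 (-2.85, 0.0547), without HCC replicate 5 (-3.89, 0.0580) and without the arrays with Xist signal (-3.76, 0.320). The 4 vehicle_normal arrays with Xist signal read 27951 to 46665 for Hamp2 and the other 2 read 19288 and 23929. BDCA_nontumor, at 2952 to 36874, had its lowest value on replicate 6, as for Hamp (-0.98 ± 1.07, adjusted p = 0.808). As for Hamp, this SE rests on the spread shared by all 4 groups, which was wider in the tumours. The tested Hamp2 probe set can also share probes with other transcripts, and its other probe set, at 3.77 to 84.2 over all arrays, did not pass the filter.

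**Figure D2:**
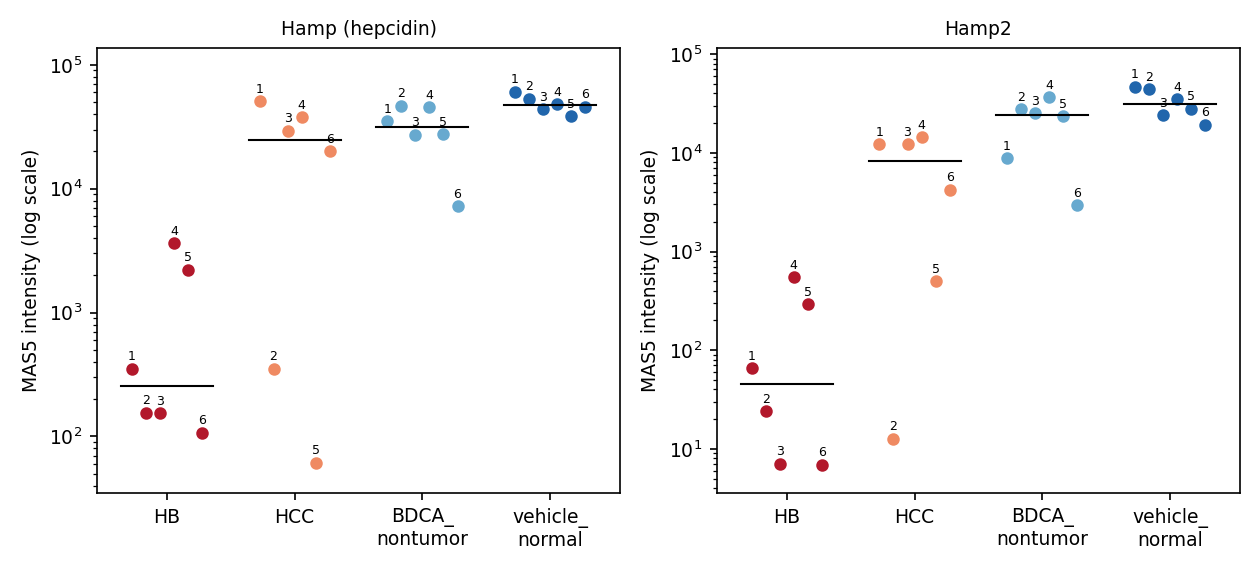
Deposited intensity (y axis, log scale) of Hamp and Hamp2 on each of the 24 arrays by group, numbered by replicate, with the group median as a line. HCC replicates 2 and 5 sit at 351 and 61.5 for Hamp, at the level of HB, while the other HCC arrays lie between 20059 and 50582.

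The sensors upstream of hepcidin were reduced in HB and were not shown to change in HCC or BDCA_nontumor. Tfr2, which senses transferrin-bound iron on hepatocytes, was read at 2.35 to 220 in HB (median 40.2) and at 11534 to 15866 in vehicle_normal (median 13319). No arrays overlapped, and the difference was -7.62 ± 0.44 (adjusted p = 1.99e-13). As 4 of the 6 HB values lay under the filter value of 66.2, they were set to it for the fold, and Tfr2 was at least 115-fold lower. Its HCC intensities were 18932, 4494, 8779, 9270, 10050 and 10414, above and below the range of vehicle_normal (-0.48 ± 0.47, adjusted p = 0.606). BDCA_nontumor was at 11709 to 17542 (0.21 ± 0.44, adjusted p = 0.917). The neighbours in the order BDCA_nontumor, vehicle_normal and HCC were not shown to differ, and HCC and HB differed by 7.14 ± 0.47. A second Tfr2 probe set gave -5.27 ± 0.49 in HB (adjusted p = 7.81e-10) and was not called in the other comparisons with vehicle_normal (-0.35 in HCC and 0.66 in BDCA_nontumor).

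Hfe, an MHC class I-like protein that binds transferrin receptors, was read at 116 to 298 in HB (median 158) and 1960 to 3187 in vehicle_normal (median 2779), a 14.1-fold lower level without overlap (-3.82 ± 0.20, adjusted p = 4.70e-14). HCC lay at 1396 to 2743 and BDCA_nontumor at 1896 to 2826, both overlapping vehicle_normal (-0.41 ± 0.21, adjusted p = 0.271, and -0.10 ± 0.20, 0.917). Bmp6, the iron-responsive ligand of endothelial cells, was dim throughout. Its HB intensities of 19.6 to 61.0, all under the filter value, lay below the 112 to 444 of vehicle_normal, a difference of -1.93 ± 0.37 (adjusted p = 9.10e-05). HCC, at 139 to 492, was the highest group by mean, and was not shown to differ from vehicle_normal (0.25 ± 0.39, adjusted p = 0.767). BDCA_nontumor was at 44.5 to 221, with replicates 3 and 4 at 44.5 and 55.9 inside the range of HB (-0.81 ± 0.37 against vehicle_normal, adjusted p = 0.464). BDCA_nontumor stood above HB by 1.13 ± 0.37 (adjusted p = 0.0126). The endothelium list, whose cells make Bmp6, moved with it in HB, as did the macrophage and hepatocyte lists given above. HCC replicate 5 had an endothelium list mean of 8.57, below the 9.41 to 10.60 of BDCA_nontumor, yet no HCC array read under 139 for Bmp6. The part of endothelial cells in the Bmp6 values was not tested.

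**Figure D3:**
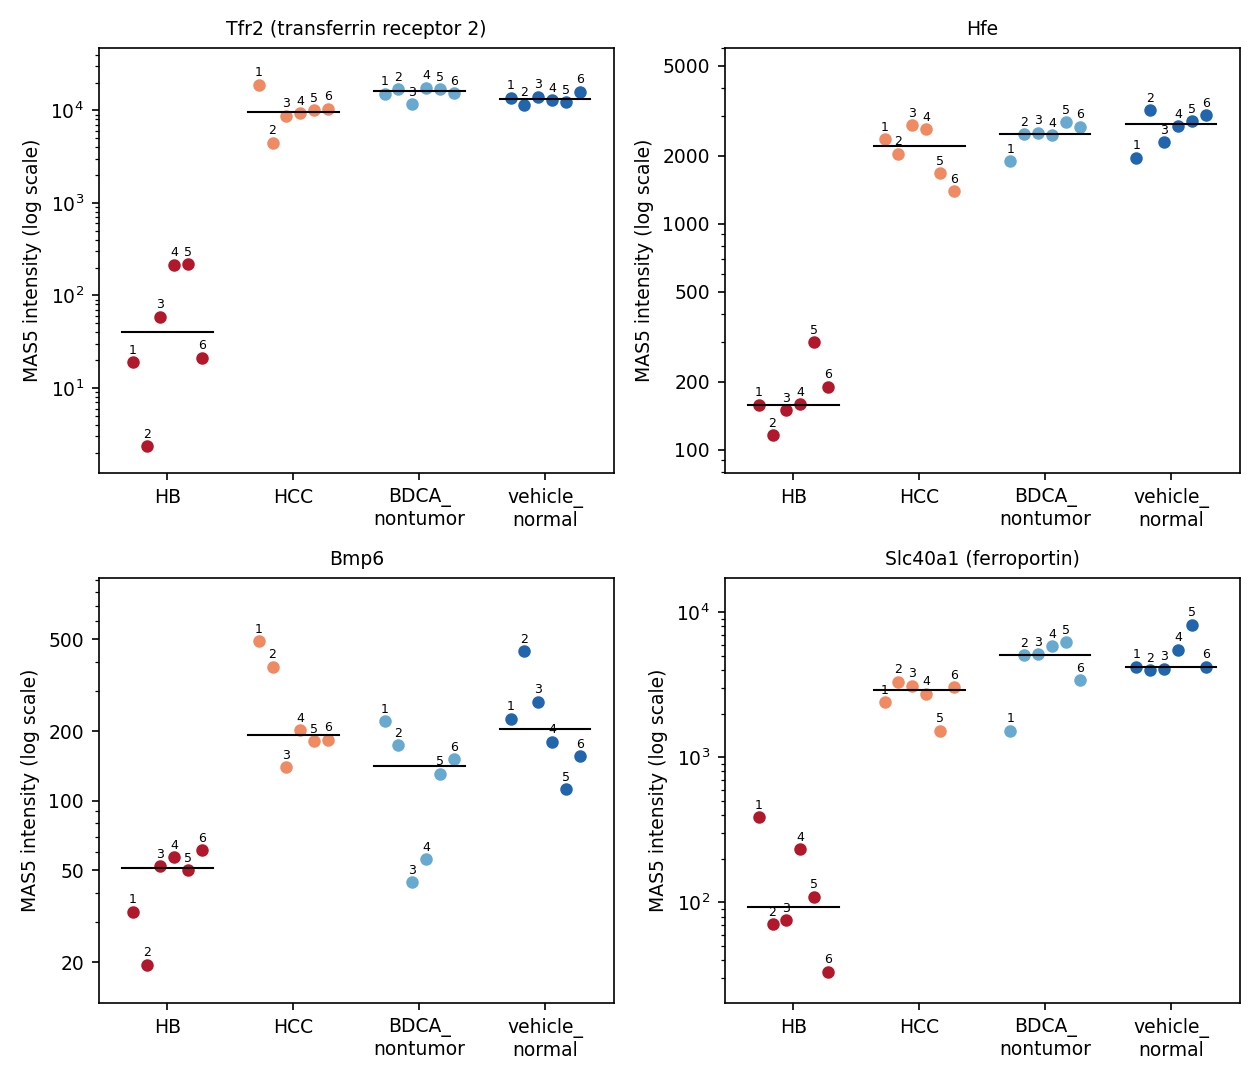
Deposited intensity (y axis, log scale) of Tfr2, Hfe, Bmp6 and Slc40a1 on each of the 24 arrays by group, numbered by replicate, with the group median as a line. HB lies below all other groups for Tfr2, Hfe and Slc40a1, and for Bmp6 it lies below HCC and vehicle_normal but overlaps BDCA_nontumor.

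Slc40a1 encodes ferroportin, the only known iron exporter of mammalian cells, which in liver is abundant in macrophages and also present in hepatocytes. Its HB intensities were 388, 71.1, 75.9, 234, 110 and 33.3, against 3981 to 8236 in vehicle_normal (median 4216). The fall was 37.3-fold without overlap (-5.22 ± 0.39, adjusted p = 2.29e-11). The macrophage list, in which 8 of 8 genes fell beside 23.1% of all tested genes, moved with Slc40a1 (median -3.85). So did the hepatocyte list (8 of 8, median -5.84) and the endothelium list (7 of 8, median -2.96). The part of each cell type in the fall of Slc40a1 was not tested. In HCC the 6 arrays read 1531 to 3329, all below the lowest vehicle_normal array, and the difference of -0.92 ± 0.41 did not pass (adjusted p = 0.183). It passed with the pair of groups fitted alone (adjusted p = 0.0345). HCC replicate 5, the lowest at 1531, was also the sample with the lowest macrophage list mean. BDCA_nontumor was at 1531 to 6262, lowest on replicate 1 (-0.23 ± 0.39, adjusted p = 0.891). That replicate had a macrophage list mean of 9.98, inside the 9.45 to 10.24 of its group. Vehicle_normal replicate 3 had the lowest macrophage list mean of its group, 8.83, yet no vehicle_normal array read under 3981 for Slc40a1. A second Slc40a1 probe set gave -4.88 ± 0.53 in HB (adjusted p = 1.26e-08) and -1.33 ± 0.55 in HCC (0.172).

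Tfrc, the receptor for cellular uptake of transferrin-bound iron, was the gene that moved the other way. At its brightest probe set the HB arrays read 1051, 1032, 1687, 842, 839 and 872 and the vehicle_normal arrays 377, 521, 847, 350, 164 and 451. The groups overlapped only through vehicle_normal replicate 3 (847), and HB was 2.46-fold higher (1.30 ± 0.31, adjusted p = 8.73e-04). This call was lost after median centring of the arrays (0.56, adjusted p = 0.157) and without the arrays with Xist signal (0.71, 0.150). The 4 vehicle_normal arrays with Xist signal read 164 to 521 for Tfrc, and the other 2 read 451 and 847. HCC was at 740 to 1193 (1.11 ± 0.33, adjusted p = 0.0376), a call lost after quantile normalization (1.00, 0.0646), median centring (0.95, 0.107), with the pair of groups fitted alone (0.0602), without the arrays with Xist signal (0.52, 0.625), without HCC replicates 3 and 4 (0.0521) and without any of HCC replicates 2, 5 and 6 or vehicle_normal replicates 1, 4, 5 and 6 (0.0501 to 0.0899). BDCA_nontumor was at 354 to 1135 (0.80 ± 0.31, adjusted p = 0.349). No neighbours in the order HB, HCC, BDCA_nontumor and vehicle_normal were shown to differ.

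The other Tfrc probe sets told the groups apart to different degrees. When all 32724 kept probe sets were tested by themselves, the second brightest Tfrc probe set read 328, 392, 215, 239, 258 and 179 in vehicle_normal, 682 to 1047 in HB, 725 to 1263 in HCC and 523 to 1485 in BDCA_nontumor. Each of the 3 groups lay wholly above vehicle_normal, beside 34.8%, 3.96% and 1% of probe sets that did not overlap in HB, HCC and BDCA_nontumor. The differences were 1.66 ± 0.26 in HB (adjusted p = 4.33e-06, where 59.5% of probe sets passed), 1.87 ± 0.27 in HCC (1.28e-04, where 5.06% passed) and 1.67 ± 0.26 in BDCA_nontumor (0.00392, where 0.107% passed). These 3 calls held in all 29 alternatives run on this probe set, and the BDCA_nontumor value had adjusted p values from 0.00169 to 0.0389, the highest without the arrays with Xist signal. This probe set was singled out after its values were seen. The third of the Tfrc probe sets gave smaller differences, 0.90 ± 0.35 in HB (adjusted p = 0.0295), 0.95 ± 0.37 in HCC (0.137) and 0.93 ± 0.35 in BDCA_nontumor (0.292), and its HB call was lost after quantile normalization (0.47, 0.248) and median centring (0.16, 0.747), and without HB replicate 3 or 4 or vehicle_normal replicate 3, 4 or 6 (0.0524 to 0.0739).

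Of the 3 control probe sets that the array carries along the Tfrc transcript, none of which was tested, the one at the 5′ end read 148 to 185 in vehicle_normal. It read 423 to 938 in HB and 223 to 637 in HCC, both above vehicle_normal, and 146 to 796 in BDCA_nontumor, where replicate 5 alone did not lie above vehicle_normal. The middle control set read 60.4 to 181 in vehicle_normal and 213 to 367 in HB, without overlap. It read 175 to 325 in HCC and 76.6 to 304 in BDCA_nontumor, both overlapping vehicle_normal. The control set at the 3′ end read 138 to 309 in vehicle_normal and 246 to 458 in HB, which overlap.

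**Figure D4:**
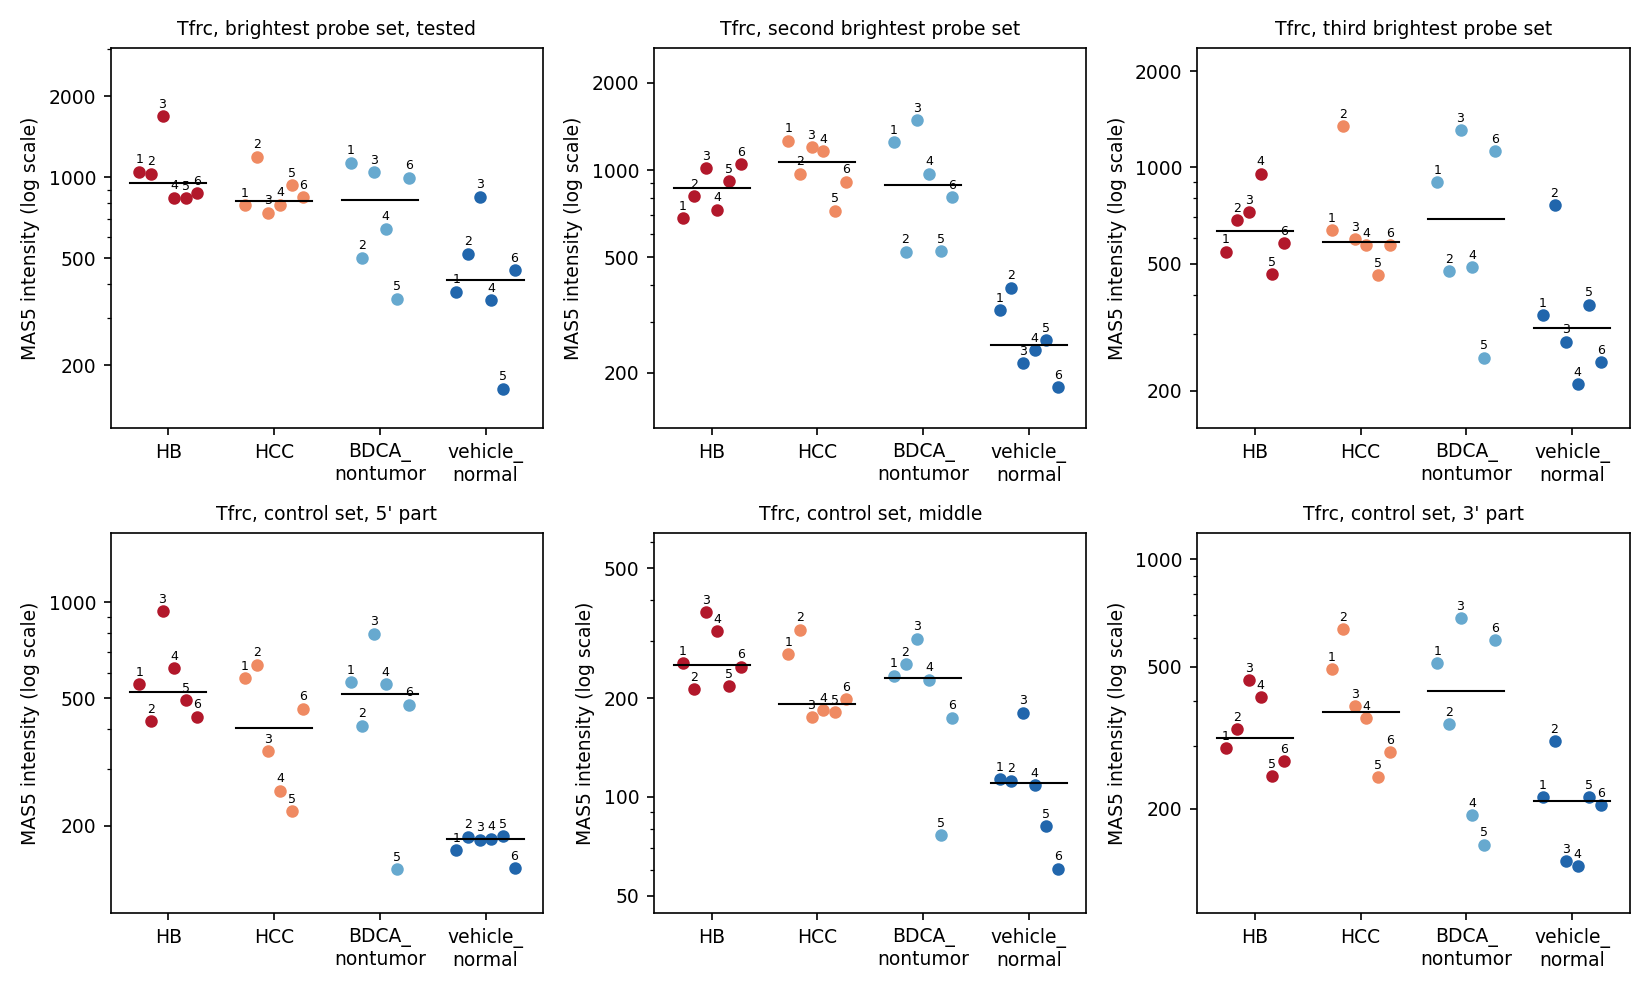
Deposited intensity (y axis, log scale) of the 6 probe sets of Tfrc on each of the 24 arrays by group, numbered by replicate, with the group median as a line. The second brightest probe set separates vehicle_normal (179 to 392) from the other 3 groups (523 to 1485), whereas the brightest probe set does not.

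Slc11a2, the endosomal iron carrier DMT1, gave no single direction. At its brightest probe set HB was at 311 to 556 and vehicle_normal at 488 to 837 (-0.53 ± 0.38, adjusted p = 0.228), a difference that passed after quantile normalization (-1.01, 0.0183) and median centring (-1.28, 0.00994). HCC was at 398 to 2013 and BDCA_nontumor at 445 to 3803, each with a single high array (HCC replicate 2 and BDCA_nontumor replicate 6), and HB was lower than HCC (-1.04 ± 0.40, adjusted p = 0.0310) and BDCA_nontumor (-1.10 ± 0.38, 0.0155). With the mean of the gene's probe sets those differences were -0.23 (adjusted p = 0.472) and -0.37 (0.197). The first also missed the threshold without HB replicate 2 or 4, HB replicates 4 and 5, HCC replicate 2 or HCC replicates 3 and 4 (adjusted p = 0.0555 to 0.119), and the second without BDCA_nontumor replicate 6 (0.0538) or the arrays with Xist signal (0.0738). The dimmest of the 4 Slc11a2 probe sets was higher in HB, at 197 to 370 against 90.5 to 196 in vehicle_normal (0.98 ± 0.31, adjusted p = 0.00861), which was lost after quantile normalization (0.27, 0.454) and median centring (0.24, 0.538). The other 2 probe sets were not called in HB (0.31 and -0.26).

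The heavy chain of ferritin, Fth1, was among the brightest of these probe sets and had the smallest of the 7 falls in HB. It was read at 12429 to 26935 in HB (median 13826) and 23775 to 30636 in vehicle_normal (median 26067), and HB replicate 4, at 26935, was the only HB array inside the range of vehicle_normal. The fall of 0.76 ± 0.16 in HB was 1.69-fold (adjusted p = 2.83e-04), and the value was 0.01 (adjusted p = 0.933) after quantile normalization. HCC and BDCA_nontumor gave differences of 0.00 ± 0.17 and 0.00 ± 0.16 from vehicle_normal (adjusted p = 0.999 and 0.998). A second Fth1 probe set gave -0.66 ± 0.26 in HB (adjusted p = 0.0303). The brightest probe set shared by the ferritin light chain gene Ftl1 and Ftl1-ps2 read 6278 to 7772 in HB and 14842 to 23926 in vehicle_normal, a difference of -1.44 ± 0.18 without overlap (adjusted p = 1.20e-07) that cannot be assigned to either gene. In HCC it was at 7292 to 19361 (-0.47 ± 0.19, adjusted p = 0.146). Another shared probe set gave -1.28 ± 0.22 in HB (2.44e-05), and the third, a dim one, gave -0.34 ± 0.32 (0.361).

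Between the tumours, 8 of the 9 iron genes were lower in HB than in HCC and none was higher, where 50.5% of tested genes passed and 21.6% were lower. The differences of HB from HCC were -7.14 for Tfr2, -4.30 for Slc40a1, -4.28 for Hamp2, -3.41 for Hfe, -3.07 for Hamp, -2.19 for Bmp6, -1.04 for Slc11a2 and -0.76 for Fth1. Tfr2, Slc40a1, Hfe and Bmp6 did not overlap, beside 28.6% of tested genes. Tfrc was at 0.19 ± 0.33 (adjusted p = 0.657). Against BDCA_nontumor the same 8 genes were lower in HB, where 56.5% of tested genes passed and 22.4% were lower, and Tfrc was at 0.50 ± 0.31 (adjusted p = 0.178). Hamp (-5.86), Hamp2 (-7.60), Tfr2 (-7.83), Slc40a1 (-4.99) and Hfe (-3.73) did not overlap there, beside 32.4% of tested genes. After quantile normalization the Fth1 differences from HCC and BDCA_nontumor no longer passed (-0.26, adjusted p = 0.0620, and -0.16, 0.222). HCC and BDCA_nontumor differed in none of the 9 at the threshold in limma, where 1.82% of tested genes passed. Their unadjusted p was under 0.05 for Hamp (-2.78 ± 1.20, adjusted p = 0.289), Hamp2 (-3.32 ± 1.12, 0.134) and Bmp6 (1.06 ± 0.39, 0.189). Without HCC replicate 1, Hamp2 passed (-4.06, adjusted p = 0.0399).

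Around the 10 genes, 7 lists covered the rest of the pathway. Of 12 genes of BMP and SMAD signalling to hepcidin, 6 rose and 4 fell in HB against vehicle_normal (median 0.52), beside 37.2% of all tested genes higher and 23.1% lower. Hjv, the BMP coreceptor that hepatocytes need to make hepcidin, fell by 6.34 ± 0.36 (adjusted p = 1.19e-13). Tmprss6, the protease that cleaves hemojuvelin, fell by 5.96 ± 0.34 (1.50e-13). Smad5 (1.76 ± 0.21) and the receptor gene Bmpr1a (1.57 ± 0.29) rose. Of 8 target genes of these SMADs, 4 rose and 2 fell (median 0.63), among them Bambi (3.41 ± 0.33), Id1 (2.30 ± 0.37) and Id3 (1.76 ± 0.36) upward and Id2 (-2.24 ± 0.28) downward. Id1 was read at 699 to 1490 in HB and 150 to 431 in vehicle_normal, without overlap. In HB, the group with the lowest mean of Hamp, Id1, Id3 and Bambi were thus higher and Id2 lower. Any link of these genes to Hamp was not tested.

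Of 10 tested inflammatory and hepatocyte factors that act on hepcidin, 2 rose and 6 fell in HB (median -1.09), beside 37.2% of all tested genes higher and 23.1% lower. Cebpa and Creb3l3, hepatocyte transcription factors that drive Hamp, fell, with differences of -5.17 ± 0.27 and -5.87 ± 0.43, and Jak1, a kinase of the interleukin-6 pathway, fell by 1.32 ± 0.23. Inhbb, which encodes a subunit of activin B, a ligand that can induce hepcidin, rose by 6.56 ± 0.47 (adjusted p = 1.08e-11). It was read at 3341 to 6325 in HB, 413 to 1028 in HCC, 25.4 to 460 in BDCA_nontumor and 5.03 to 102 in vehicle_normal. In HCC Inhbb rose by 4.02 ± 0.50 against vehicle_normal (adjusted p = 3.55e-05) and was also above BDCA_nontumor (2.30, adjusted p = 0.0142), a call that was lost with a pseudocount of 1 (0.0576) and with the pair of groups fitted alone (0.0755). Hamp2 fell and Hamp was at -3.60 in the same HCC comparison, and any link to Inhbb was not tested.

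In 3 of the remaining 4 lists most tested genes fell in HB, beside 23.1% of all tested genes lower and 37.2% higher. For iron and haem uptake, 9 of 13 tested genes fell and none rose (median -2.18), with the haem-binding plasma protein Hpx at -7.59 ± 0.61, the metalloreductase Steap4 at -5.01 ± 0.42, the haemopexin receptor Lrp1 at -3.15 ± 0.23 and the iron carrier Slc39a14 at -2.15 ± 0.26. For iron sensing, chaperones and release, 3 of 9 fell and 1 rose (median -0.06). Cp, the ferroxidase that works with ferroportin, fell by 4.94 ± 0.57, Aco1, which encodes iron regulatory protein 1, by 2.37 ± 0.18, and Ncoa4, the receptor for breakdown of ferritin, by 1.17 ± 0.19, while the haem exporter Flvcr1 rose by 1.71 ± 0.33. For haem synthesis and breakdown, 7 of 11 fell and 1 rose (median -1.41), and the synthesis enzymes Cpox (-2.67 ± 0.26), Alad (-1.92 ± 0.26), Fech (-1.71 ± 0.19) and Urod (-1.08 ± 0.20) were among those that fell. For mitochondrial iron and iron-sulphur clusters, 8 of 10 fell and none rose (median -0.95), with Fdx1 (-2.20 ± 0.20), Bola3 (-2.10 ± 0.28), the scaffold Iscu (-1.63 ± 0.19) and Isca2 (-0.90 ± 0.17). The HB calls of the list genes named so far were not lost in any of the 40 alternatives. After median centring, which moved the median of all tested genes from 0.34 to -0.40, the signalling list had 2 higher and 5 lower and the target list 3 higher and 2 lower.

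In HCC against vehicle_normal few list genes passed, beside 4.36% of all tested genes higher and 2.87% lower. Smad5 rose (0.96 ± 0.22, adjusted p = 0.00861) and Bmp2, a second BMP ligand of the sinusoidal endothelium that supports hepcidin, fell (-1.30 ± 0.31, 0.0114), from 251 to 898 in vehicle_normal to 92.3 to 309 in HCC. Cebpa (-1.07 ± 0.28, 0.0205), the interleukin-6 coreceptor gene Il6st (-0.97 ± 0.27, 0.0265) and Aco1 (-0.71 ± 0.18, 0.0187) fell. In the uptake list 3 of 13 rose: the ferritin receptor gene Scara5 (4.35 ± 1.05, 0.0116), the haem transporter Slc48a1 (1.28 ± 0.35, 0.0259) and Lcn2, a siderophore-binding protein of the acute phase (2.90 ± 0.85, 0.0383). None of the 8 target genes, the 11 haem genes or the 10 mitochondrial genes passed, with medians of -0.48, -0.17 and -0.06 beside 0.08 over all genes. Without the arrays with Xist signal, only Inhbb of the genes named in this comparison still passed. The Lcn2 and Scara5 differences were then 1.66 and 1.67. Lcn2 was read at 9808 and Scara5 at 1298 on vehicle_normal replicate 6, beside 372 to 2212 and 1.79 to 139 on the other 5 arrays. Leaving out HCC replicate 5 alone ended the calls of Cebpa (adjusted p = 0.0539), Il6st (0.0748), Lcn2 (0.0580) and Slc48a1 (0.0897). Lcn2 also missed it without HCC replicate 1 or 6 or vehicle_normal replicate 1, 2, 3 or 4 (0.0617 to 0.0952), and Slc48a1 without HCC replicate 2 or vehicle_normal replicate 1 or 4 (0.0525 to 0.0664).

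In BDCA_nontumor against vehicle_normal 1 list gene passed, where 0.0994% of all tested genes did. Alas1, the rate-setting enzyme of haem synthesis in liver, rose by 1.94 ± 0.38 (adjusted p = 0.0408), from 896 to 3140 in vehicle_normal to 3410 to 11563, without overlap. The call was lost in 16 of 40 alternatives, with values of 1.75 to 2.01 and adjusted p values of 0.0507 to 0.375, among them leaving out vehicle_normal replicate 1, 2, 4, 5 or 6, BDCA_nontumor replicate 1, 3, 4 or 5, or HB replicate 1.

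**Figure D5:**
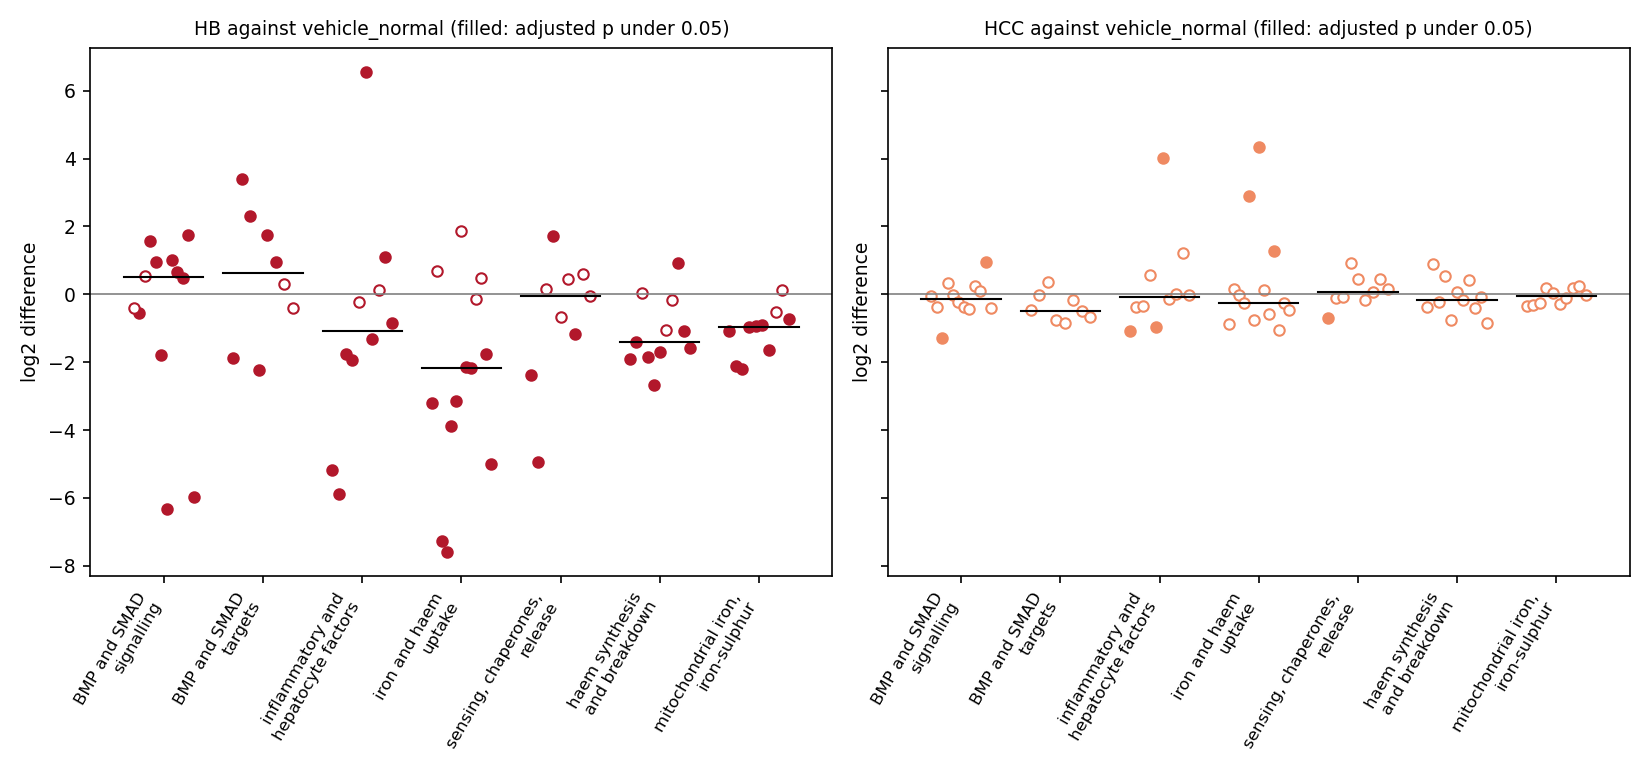
Log2 difference from vehicle_normal (y axis) of each tested gene of the 7 pathway lists (x axis) in HB (left) and HCC (right), with filled points at an adjusted p under 0.05 and the list median as a line. In HB the uptake list has its median at -2.18 and no filled point above 0, and in HCC the medians lie between -0.48 and 0.07.

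As a description of likeness, the genes whose log2 values followed Hamp most closely over all 23 samples were Hamp2 (Pearson r = 0.945), Pigr (0.932), Mup3 (0.931), Wfdc21 (0.929) and Snai2 (0.929). These points share the wide gap between HB and the other groups. The tested Hamp2 probe set can share probes with other transcripts, and whether it also reads Hamp was not tested. Over the 17 samples without HB they were Pigr (0.967), Wfdc21 (0.957), Uroc1 (0.952), Cyp2a12 (0.918) and Arg1 (0.911), and there HCC replicates 2 and 5 stand apart from the others. For Tfrc the closest over all samples were Ptges (0.792), Gmppa (0.790), Pvr (0.778), Rdm1 (0.770) and Agpat5 (0.756), and without HB they were Rdm1 (0.834), Golph3 (0.817), Ptges (0.804), Colgalt1 (0.796) and Gmppa (0.796).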

How the data were processed

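Per the labels' protocols, total RNA was amplified, labelled with biotin and hybridised to 1 array per sample. The deposited intensities were made by the authors with MAS5, per the submitters' processing notes (version not given in the sources used here). Every array had a 2% trimmed mean of 500. The analysis used log2(intensity + 16). Probe sets needed 6 values above 66.2 (percentile 40 over all values), and each gene was represented by the brightest of those left. Of 45101 probe sets, 34945 had 1 gene symbol, 932 several, 9160 none, and 64 were controls. All 4 groups were fitted together in limma 3.58.1 (R 4.3.3), with eBayes and a variance trend, over 23 samples, for 6 two-sided comparisons at an adjusted p of 0.05. HCC replicates 3 and 4 differed far less (scaled median absolute deviation 0.177 over 5992 bright probe sets) than the other pairs of 60 (0.348 to 0.825) and were counted as 1 sample. The number of arrays limits the precision. Detection calls were not used here.

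The genes, lists and tests were chosen with earlier results of these data known. Named were the 10 genes with their probe sets, up to 4 genes of each pathway list by adjusted p in HB against vehicle_normal, up to 3 called genes elsewhere, and the 5 genes most like Hamp and Tfrc. Values of list genes on single arrays were chosen after they were seen. The lists of stellate and erythroid markers gave 5 of 8 lower in HB, and 1 of 2 tested higher with 1 lower. Of all tested genes, 23.1% were lower and 37.2% higher there. The deviations of same-numbered arrays from their group means had r from -0.115 to 0.077 in the comparisons other than HCC against BDCA_nontumor. In HCC against BDCA_nontumor r ran from -0.069 to 0.505, with 2 of 6 pairs over 0.1. The numbers were not taken as pairs in any comparison, and the labels do not say whether those 2 pairs share an animal. The alternatives changed pseudocount, scaling, filter, probe set rule, variance model, weights, samples and the block. The method was tested on simulated data with normal noise and the same spread in every group. That test cannot speak for genes such as Hamp, whose spread differed between groups. Promoters were compared with Biopython 1.88, and figures drawn with Python 3.11.15 and matplotlib 3.10.9.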

Additional observations from a re-analysis of the deposited data

Results flagged for a closer look

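In 36 sets of 5 or 6 samples, 9 genes in each of 4 groups, a gap test at the 95% level picked out 5 single arrays, where chance picks out about 1 in 20 sets. Hamp was low on BDCA_nontumor replicate 6, at 7265 beside 27210 to 46852 on the other arrays. Tfrc was high on HB replicate 3, at 1687 beside 839 to 1051. Tfr2 was low on BDCA_nontumor replicate 3, at 11709 beside 15126 to 17542. Fth1 was high on HB replicate 4, at 26935 beside 12429 to 16082. Hfe was low on BDCA_nontumor replicate 1, at 1896 beside 2464 to 2826.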

How the results depend on the processing

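Of 2160 values (54 gene and comparison pairs under 40 alternatives), 2115 kept their side of the threshold, 37 lost a call, 7 gained one and 1 reversed. A change of direction was counted as a reversal only where the main or the alternative value passed, so the 2115 can include changes of direction among values that did not pass. Of the 54 pairs, 41 changed call in no setting. The reversal was Fth1 in HB against vehicle_normal, at 0.012 after quantile normalization, which moved the median of all tested genes from 0.34 to -0.01 and the percentage of its calls that lay above vehicle_normal from 61.7% to 48.9% (30.4% after median centring). The 2 iron genes called in HCC against vehicle_normal became 1 after quantile normalization, 1 after median centring and 0 without the arrays with Xist signal, where 193 genes over the whole array passed (1019 with all arrays), and 0 to 3 when single arrays were left out. The count in HCC against BDCA_nontumor was 0 to 1 when single arrays were left out. In the other 4 comparisons the counts stayed within 1.5 times under the settings tried. With the replicate number as a block, the counts were 8 in HB and 2 in HCC against vehicle_normal, and the block changed no call of the 54 pairs. The cause of the lost calls was not tested.

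Vehicle_normal and the tumours differ in Xist signal, so the sex of the animals and the group cannot be told apart in full. Intensities under 66.2, as for Hamp2 and Tfr2 in HB, lie in the lowest 40 percent of all values, and folds there depend on the pseudocount.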
